A study of Mus musculus and Rattus norvegicus with 85 samples.

Results

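The lungs of female rats that had breathed 90 ppm chloroprene for 5 exposure days were compared with those of rats that had breathed 5 ppm for the same time. The animals were chosen by the concentration, time and animal number in the sample labels, 5 rats per group, which makes 10 of the 85 arrays of the series. Chloroprene is the volatile chlorinated monomer of neoprene rubber. The rats were adult females of the inbred strain F344/NCrl, which a second label field spells F334/NCrl, and were 10 weeks old when exposure began. Both groups were exposed whole-body for 6 h per day on 5 days per week, were killed on day 5, and were given different concentrations. The labels also differ between them in RNA integrity, which is described with the arrays. RNA from right lung tissue kept in RNAlater was hybridised to Affymetrix Rat230_2 arrays, 1 array per animal. No rat group at 0 ppm was analysed here, so 5 ppm was the reference and any change already present at 5 ppm was not measured. Further rats at 30 and 200 ppm after 5 days, and at 5 and 90 ppm after 15 exposure days (killed on day 19), are used below only where they bear on the same genes.

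Chloroprene is oxidised in the lung by cytochromes P450, which are abundant in the club cells of the airways, to reactive epoxides and aldehydes. These are removed by epoxide hydrolase and by conjugation with glutathione. Electrophiles of this kind also release the transcription factor NRF2, which switches on the enzymes of glutathione synthesis and conjugation and of quinone and aldehyde reduction.

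Each probe set has a log2 signal, so a difference of 1 is a doubling. Changes are given as 90 minus 5 ppm ± the standard error of a limma fit over all 40 rat arrays, with n = 5 rats per group, and a gene is said to rise or fall where its p-value, adjusted by Benjamini-Hochberg over all 11010 genes tested, is under 0.05. Precision is set by how few arrays a group has, and the standard error of a change had a median of 0.110. The arrays carried a lung profile. The surfactant genes Sftpc, Sftpb and Sftpa1, the club cell gene Scgb1a1, the alveolar type 1 gene Ager, the endothelial gene Pecam1 and the ciliated cell gene Foxj1 had group means between 9.02 and 15.06. The highest value of the table is 15.1, so a change in Sftpc or Scgb1a1 could be compressed.

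The arrays differed in ways that run with concentration, and these bear on every result. The RNA integrity number, a score of RNA quality from 1 to 10 in the labels, was 7.6, 8.3, 8.5, 8.4 and 7.3 in rats 217, 219, 220, 221 and 222 at 5 ppm. It was 9.3, 9.2, 9.2, 9.2 and 9.2 in rats 249 to 253 at 90 ppm. The groups did not overlap (difference 1.20, exact two-sided permutation p = 0.0079, the smallest that 5 against 5 can give). Within this pair of groups, concentration and RNA quality cannot be told apart. At 15 days the order was the other way, with a mean of 9.02 at 5 ppm and 8.42 at 90 ppm. After 5 days the numbers ran from 8.3 to 9.3 at 30 ppm and from 7.1 to 8.7 at 200 ppm (n = 4 rats each). The 3' minus 5' signal of the Gapdh and beta-actin control probe sets, which grows as RNA breaks, averaged 0.325 at 5 ppm and 0.277 at 90 ppm (exact two-sided permutation p = 0.40).

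A second difference was a shift shared by many genes. The first component of the within-group residuals held 64.8% of the variance within groups, and the score of an array on it was -0.43 in rat 217, -0.14 in rat 219, 0.02 in rat 220, -0.05 in rat 221 and 0.20 in rat 222, against 0.11 to 0.27 in the 90 ppm rats (difference 0.28 log2 units per gene, exact two-sided permutation p = 0.024). Rat 217 lay farthest from the 90 ppm rats, and rat 222 lay among them. After 5 days the score ran from -0.39 to 0.23 at 30 ppm and from 0.06 to 0.23 at 200 ppm. Across genes, the change from 5 to 90 ppm correlated with the loading of this component (r = 0.85 over 11010 genes, which are not independent and share the same arrays). The component was turned so that its loading ran with this change, which set the sign of r and of the score difference. The part of this component in the results was not tested beyond the fits given here. Most gene lists below are followed by counts without rat 217, with the RNA integrity number in the fit, and with this score.

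**Figure D1:**
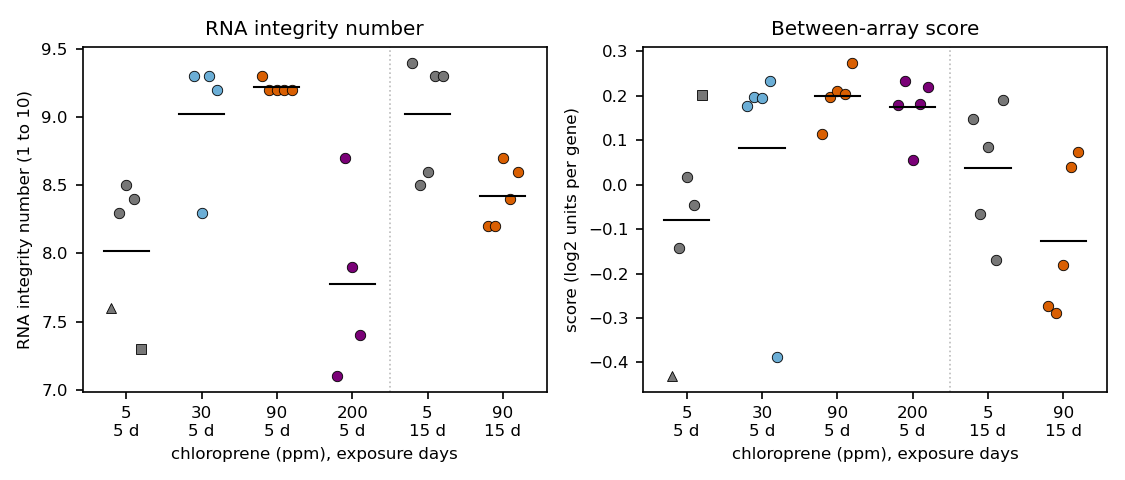
RNA integrity number (left) and between-array score (right) of each rat, by chloroprene concentration and exposure days; bars are group means, the triangle is rat 217 and the square rat 222, both at 5 ppm and 5 days. All 5 rats at 90 ppm and 5 days lie above all 5 ppm rats of that time in RNA integrity (9.2 to 9.3 against 7.3 to 8.5), and rat 217 has the lowest score (-0.43).

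Of the 11010 genes, 455 rose (4.13%) and 2143 fell (19.5%) at 90 ppm, 23.6% together, and 305 of them changed by at least 1.5-fold. The median change over all genes was -0.14. When each array was centred on its median gene the counts were 400 (3.63%) and 1019 (9.26%), so the share of rises among the calls moved from 17.5% to 28.2%. Without rat 217, 18 genes rose and 18 fell (0.163% each). When the RNA integrity number entered the fit as a covariate, 12 rose (0.109%) and 5 fell (0.0454%), over the 38 arrays that have one in the labels (the 2 without it are at 30 and 200 ppm). The median change over all genes was -0.13 in that fit, near the -0.14 without the covariate. Fewer calls there, and in the lists below, therefore do not mean smaller changes, and the part of RNA quality was not tested. With the between-array score 90 rose (0.817%) and 121 fell (1.1%). Rat 217 was the lowest of the 5 ppm rats in 347 of the 455 risen genes (76.3%) and the highest in 1933 of the 2143 fallen genes (90.2%). Rat 222 lay at or above the lowest 90 ppm rat in 284 of the risen genes (62.4%). Leaving out rat 222 gave 5639 calls, and leaving out any 1 of the other animals gave between 36 and 2786.

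A set of 36 genes, 18 higher and 18 lower, passed the threshold in the full fit and in each of the 10 fits that left out 1 rat. They are the same 36 genes that passed without rat 217. All 36 also passed with the between-array score as a covariate, and 13 with the RNA integrity number. The score was computed from these same arrays, so passing with it is not separate support. These 36 genes were singled out after their values were seen. Among the 18 that rose were Gsta3, a glutathione transferase, Pir, pirin, an iron-binding nuclear protein, Aldh1a1, the retinal dehydrogenase, the interferon-induced Ifit3, the insulin-like growth factor receptor Igf1r, the bone morphogenetic protein receptor Bmpr2 and the X-inactivation RNA Xist. Among the 18 that fell were Slc7a9, a transporter of cystine and basic amino acids, Avil, the actin-binding advillin, Alox15, a lipoxygenase that oxygenates arachidonic acid, Anxa4, a calcium-dependent membrane-binding annexin, and Mest, an imprinted gene of the mesoderm.

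**Figure D2:**
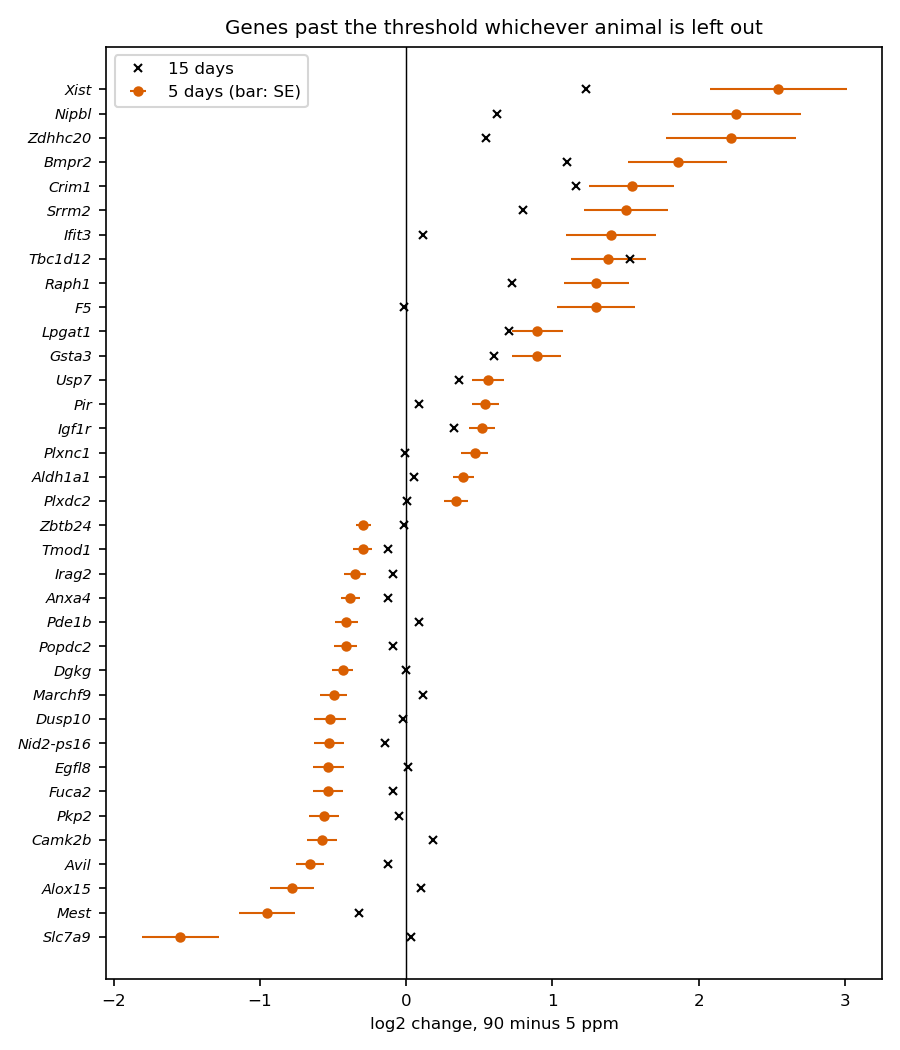
Log2 change from 5 to 90 ppm of the 36 genes that passed the threshold whichever of the 10 rats was left out: circles with standard errors after 5 days, crosses after 15 days in other rats. Changes after 5 days run from -1.54 (Slc7a9) to 2.54 (Xist), and Tbc1d12 has nearly the same change at both times (1.38 and 1.53).

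Genes of detoxification rose at 90 ppm in a small group led by glutathione transferase. Of 31 measured targets of NRF2, 5 rose and 0 fell, against 4.13% rising and 19.5% falling over all genes. The list's median change was 0.02, against -0.14 over all genes. The signal of Gsta3, an alpha class glutathione transferase, was 7.07, 7.07, 7.33, 6.88 and 7.28 in the 5 ppm rats and 7.85, 7.72, 7.79, 8.26 and 8.47 in the 90 ppm rats. Every rat at 90 ppm lay above every rat at 5 ppm, a rise of 0.89 ± 0.17, or 1.86-fold (adjusted p = 0.0038). Gclc, the catalytic subunit of the enzyme that limits glutathione synthesis, was 8.62, 8.66, 8.66, 8.80 and 8.69 at 5 ppm and 9.05, 8.96, 9.06, 9.03 and 9.27 at 90 ppm, again without overlap (0.39 ± 0.08, adjusted p = 0.0088), and its other probe set gave 0.43. Akr1b8, an aldo-keto reductase that reduces reactive aldehydes, was 9.61, 9.54, 9.37, 9.49 and 9.20 at 5 ppm and 10.01, 9.96, 9.81, 9.91 and 9.96 at 90 ppm (0.49 ± 0.14, adjusted p = 0.022). Smaller rises were those of Me1, the malic enzyme that makes NADPH (0.26 ± 0.08, other probe set 0.12), and Abcc4, an exporter of conjugates (0.26 ± 0.08). In all 5 genes the groups did not overlap, which held over all genes for 2.88% in this direction.

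Pir, which is also known as a target of NRF2 but stood in no list, was 8.42, 8.57, 8.60, 8.60 and 8.48 at 5 ppm and 9.12, 9.09, 8.99, 9.07 and 9.10 at 90 ppm. The ranges lie apart, and the rise of 0.54 ± 0.09 (adjusted p = 0.0020) was 0.51 without rat 217, 0.53 with the RNA integrity number (adjusted p = 0.041) and 0.51 with the between-array score (adjusted p = 0.010). Other well-known targets did not pass. Nqo1, a quinone reductase, was at 0.22 ± 0.10 (adjusted p = 0.086), with 90 ppm rats from 11.40 to 11.76 overlapping 5 ppm rats from 11.24 to 11.61. Srxn1, sulfiredoxin, was at 0.35 ± 0.16 (adjusted p = 0.082), Gclm, the other subunit of the glutathione-limiting enzyme, at 0.15 ± 0.10, and Hmox1, haem oxygenase, at -0.10 ± 0.14. With the between-array score, 7 of the 31 NRF2 targets rose and 1 fell, and Nqo1 passed (0.41, adjusted p = 0.010). Without rat 217, 1 rose and 0 fell. With the RNA integrity number, 0 passed, with Gsta3 at 0.89 (adjusted p = 0.069) and Gclc at 0.43 (adjusted p = 0.077).

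The same genes at the other concentrations give a scale for these rises, although the values below share the 5 ppm rats as reference. Gsta3 was 0.74 above 5 ppm at 30 ppm, 0.89 at 90 ppm and 1.39 at 200 ppm. Gclc stood at 0.26, 0.39 and 0.75, Akr1b8 at 0.48, 0.49 and 1.08, and Pir at 0.28, 0.54 and 0.74. The 30 ppm value of Akr1b8 was 0.30 without rat 239. In other rats after 15 days, Gsta3 was higher at 90 than at 5 ppm by 0.60 (adjusted p = 0.11), Gclc by 0.30 (adjusted p = 0.11), Akr1b8 by 0.46 (adjusted p = 0.13) and Pir by 0.08 (adjusted p = 0.68). None of these 4 passed at 15 days, where 30 genes rose (0.272%) and 4 fell (0.0363%), and the difference between the times did not pass in any of the 4 with the limma test of that difference.

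**Figure D3:**
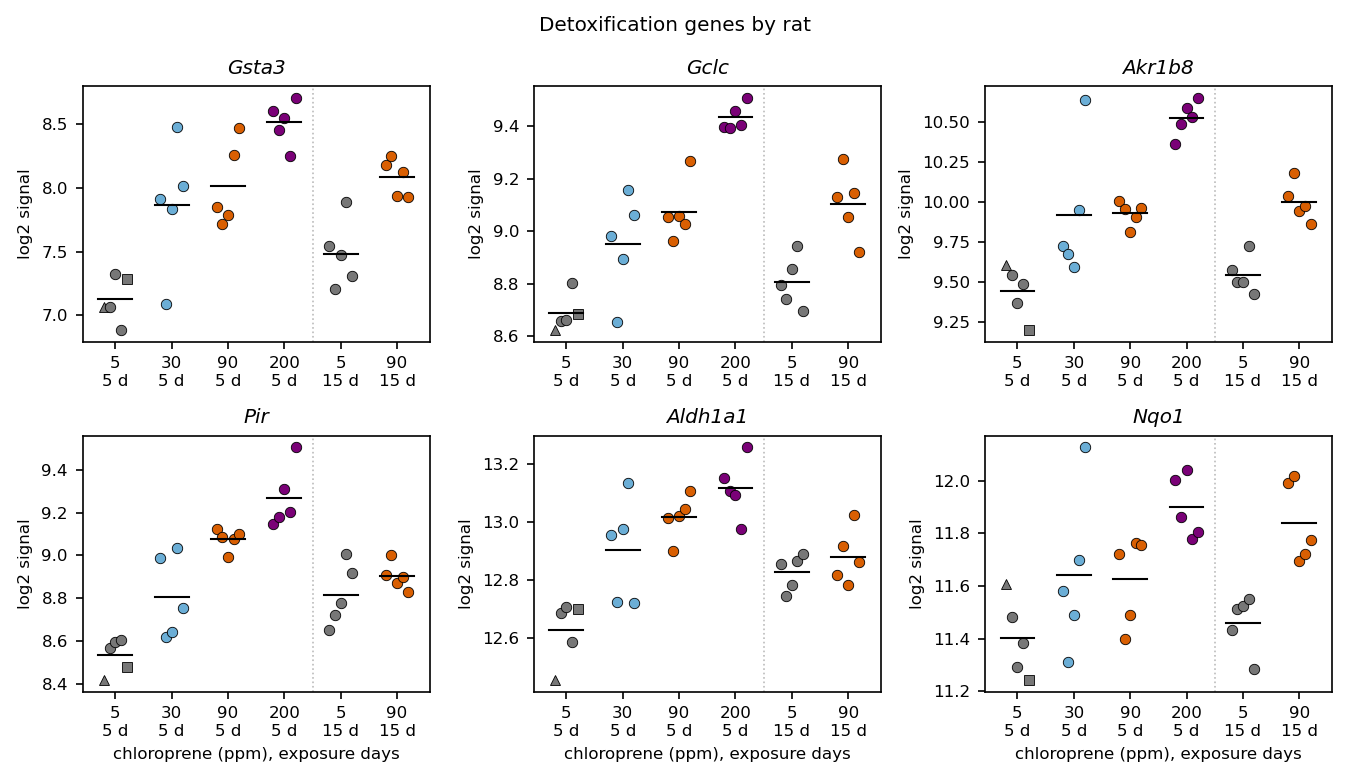
Log2 signal of 6 detoxification genes in each rat, by chloroprene concentration and exposure days; bars are group means, the triangle is rat 217 and the square rat 222. For Gsta3, Gclc, Akr1b8, Pir and Aldh1a1 all 90 ppm rats lie above all 5 ppm rats after 5 days, and for Nqo1 the groups overlap.

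Enzymes of the first phase of xenobiotic metabolism and of glutathione conjugation held calls in both directions, where of all genes 4.13% rose and 19.5% fell. Of 27 measured first phase genes, 3 rose and 2 fell (median -0.06). Aldh1a1, which oxidises retinal and other aldehydes, was 12.45, 12.68, 12.71, 12.59 and 12.70 at 5 ppm and 13.01, 12.90, 13.02, 13.04 and 13.11 at 90 ppm, without overlap (0.39 ± 0.07, adjusted p = 0.0031). Fmo2, the flavin monooxygenase of the lung, rose by 0.92 ± 0.29 (other probe sets 0.46 and 0.98), and Cyp1b1, a P450 that the aryl hydrocarbon receptor induces, by 0.44 ± 0.10. Cyb5r3, a reductase that feeds electrons to cytochrome b5, fell by 0.27 ± 0.08, and Cyp1a1, another P450 that this receptor induces, by 0.76 ± 0.27 (named after its value was seen). The enzymes that make and hydrolyse the chloroprene epoxide did not pass: the P450 Cyp2e1 was at 0.18 ± 0.13 (adjusted p = 0.25), the club cell P450 Cyp2f4 at 0.69 ± 0.38 (adjusted p = 0.14) and the microsomal epoxide hydrolase Ephx1 at -0.02 ± 0.12 (adjusted p = 0.91). The 5 ppm rats ranged from 8.99 to 10.58 in Cyp2f4 and the 90 ppm rats from 9.77 to 11.05. Among 31 genes that make or use glutathione, 1 rose and 2 fell (median -0.09). The alpha class transferase Gsta1 rose by 0.25 ± 0.07, while Gss, glutathione synthetase, fell by 0.34 ± 0.12 and Ltc4s, which joins glutathione to leukotriene A4, fell by 0.42 ± 0.09. Without rat 217, Aldh1a1 alone of the genes of these 2 lists passed, with the RNA integrity number 0, and with the between-array score 3, Aldh1a1 and Cyp2e1 upward and Ltc4s downward.

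Slc7a9 had the largest fall of the genes that passed. Its signal was 7.75, 7.53, 7.50, 8.20 and 7.20 in the 5 ppm rats and 6.59, 6.05, 5.69, 5.93 and 6.20 in the 90 ppm rats, so that the groups lay apart, and the fall was 1.54 ± 0.26, or 2.92-fold (adjusted p = 0.0020). With the RNA integrity number the change was -1.56 (adjusted p = 0.047), and with the between-array score -1.31 (adjusted p = 0.014). Against the same 5 ppm rats it stood at -0.91 at 30 ppm and -1.91 at 200 ppm. After 15 days it was at 0.03, with both groups wide (6.00 to 7.68 at 5 ppm, 6.06 to 7.52 at 90 ppm). Avil had the smallest p-value of all genes. It was 9.67, 9.57, 9.49, 9.51 and 9.32 at 5 ppm and 8.83, 8.93, 8.67, 8.71 and 9.14 at 90 ppm, with the lowest 5 ppm rat above the highest 90 ppm rat, and fell by 0.66 ± 0.10 (adjusted p = 0.00094). At 15 days Avil was at -0.13. Anxa4 fell by 0.38 ± 0.06 (adjusted p = 0.0020), with its other probe set at -0.44, and Mest by 0.95 ± 0.19 (adjusted p = 0.0060).

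In the mast cell and eosinophil list 3 of 9 measured genes fell and 0 rose, where 19.5% of all genes fell. The list's median was -0.13, close to the -0.14 of all genes. The 3 were Alox15, Alox5 and Ltc4s. Alox15 was 10.29, 10.03, 9.72, 9.88 and 9.73 at 5 ppm and 9.37, 9.04, 9.07, 8.94 and 9.33 at 90 ppm, and fell by 0.78 ± 0.15 (adjusted p = 0.0042). Alox5, which starts leukotriene synthesis, fell by 0.52 ± 0.13 (adjusted p = 0.013), and Ltc4s, named above, belongs to this list as well. Rat 217 was far above its group in Alox5 (9.92, others 9.49 to 9.58). Alox15 alone passed without rat 217, Alox15 and Ltc4s passed with the between-array score, and 0 of the 9 with the RNA integrity number.

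Genes that interferon induces were higher at 90 ppm as a group. Of 44 measured, 17 rose and 0 fell, against 4.13% and 19.5% of all genes, 41 had a change above 0, and the median was 0.36. In 11 of the 44 every 90 ppm rat lay above every 5 ppm rat, against 2.88% of all genes. The mean log2 signal of the list was 8.89 to 9.62 in the 5 ppm rats and 9.56 to 9.81 in the 90 ppm rats, which overlap. Ifit3, named above, was 8.46, 7.75, 9.23, 8.08 and 8.45 at 5 ppm and 9.59, 9.99, 9.71, 9.82 and 9.86 at 90 ppm. The 90 ppm rats formed a tight set above rat 220, the highest at 5 ppm, and the rise was 1.40 ± 0.30, or 2.64-fold (adjusted p = 0.0088). Herc6, a ligase that attaches the ubiquitin-like ISG15, was 6.21, 6.04, 7.78, 6.42 and 6.88 at 5 ppm and 8.41, 8.91, 8.94, 8.93 and 8.84 at 90 ppm (2.14 ± 0.54, 4.42-fold, adjusted p = 0.015). Ifit2 rose by 1.68 ± 0.42 (other probe set 1.89) and Parp14, an ADP-ribosyltransferase, by 0.68 ± 0.17 (other probe set 0.77). Slfn4, a schlafen gene of the neutrophil list that interferon also induces, rose by 1.81 ± 0.44. Isg15 itself (0.90 ± 0.36, adjusted p = 0.060) and Usp18, which removes it (0.64 ± 0.29, adjusted p = 0.081), did not pass.

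The interferon genes did not follow concentration in order. Against the same 5 ppm rats, the median of the 44 genes was 0.09 at 30 ppm and -0.28 at 200 ppm, where 1 rose and 5 fell (of all genes, 4.68% rose and 31.6% fell there). Herc6 was 6.54, 6.85, 7.13, 9.37 and 6.82 in the 200 ppm rats, 1 of which, at 9.37, was above all 90 ppm rats while the others lay below them. Of the 30 ppm rats, 4 lay between 7.49 and 8.62 and rat 239 at 5.85. After 15 days the list's median change from 5 to 90 ppm was 0.13, with 0 of 44 called by limma. Without rat 217 Ifit3 alone passed, although the median was 0.47. With the between-array score 2 passed, Ifit3 and Trim25 (median 0.43), and with the RNA integrity number 0 (median 0.38). For comparison, from 5 to 90 ppm after 5 days 1 of 35 genes of the T and natural killer cell list rose and 0 fell (median -0.23). In the inflammatory cytokine list 0 rose and 2 of 31 fell (median -0.09). Of all genes 4.13% rose and 19.5% fell in that comparison (median -0.14).

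Genes of the mesothelium, the cell layer that covers the lung and lines the chest cavity, were lower at 90 ppm. Of 17 measured, 10 fell and 0 rose, against 19.5% of all genes falling, and the median was -0.42. In bulk lung, fewer cells of a type and less RNA per cell cannot be told apart. Msln, mesothelin, was 11.52, 11.03, 11.11, 11.45 and 10.87 in the 5 ppm rats and 10.58, 10.18, 10.00, 10.51 and 10.58 in the 90 ppm rats. All 90 ppm rats lay below all 5 ppm rats, a fall of 0.83 ± 0.20 (adjusted p = 0.013). Wt1, a transcription factor of mesothelial cells, was 8.37, 7.79, 7.74, 8.41 and 7.30 at 5 ppm and 7.38, 6.93, 6.62, 7.19 and 7.25 at 90 ppm, where rat 222, at 7.30, lay inside the range of the 90 ppm rats (0.85 ± 0.22 lower, adjusted p = 0.017). Bnc1, basonuclin, fell by 1.07 ± 0.29, Upk1b, a uroplakin, by 0.94 ± 0.21, Chst4, a sulfotransferase, by 1.00 ± 0.22, Aldh1a2, which makes retinoic acid, by 0.80 ± 0.18, and Lrrn4 by 0.78 ± 0.19 (other probe sets -0.86 and -0.36). In 8 of the 17 genes the groups did not overlap, against 7.12% of all genes. The mean log2 signal of the list was 10.04 to 10.48 in the 5 ppm rats and 9.55 to 10.00 in the 90 ppm rats. How much pleural surface each right lung sample carried was not given in the sources used here, and its part was not tested.

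Against the same 5 ppm rats the mesothelial median was -0.24 at 30 ppm and -0.46 at 200 ppm. At 200 ppm 12 of the 17 fell, where 31.6% of all genes fell. Msln stood at -0.42, -0.83 and -1.09 at 30, 90 and 200 ppm, and Bnc1 at -0.63, -1.07 and -1.72. After 15 days the median change from 5 to 90 ppm was -0.08, and the 90 ppm rats were spread widely (11.23, 11.20, 10.91, 10.25 and 9.99 in Msln). Without rat 217, 0 of the 17 passed (median -0.37), without rats 217 and 222 together 9 fell, with the RNA integrity number 0 (median -0.45) and with the between-array score 2, Chst4 and Lrrn4 (median -0.23).

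In several of the largest rises, rat 222 stood apart from the other 5 ppm rats. Xist, the long noncoding RNA that silences an X chromosome in females, was 8.19, 10.04, 9.96, 8.68 and 12.28 in the 5 ppm rats and 12.33, 12.39, 12.41, 12.56 and 12.16 in the 90 ppm rats. Rat 222 lay with the 90 ppm rats, and the other 4 lay between 8.19 and 10.04. The change was 2.54 ± 0.47 (adjusted p = 0.0033), and the other 3 probe sets of Xist gave 0.64, 0.80 and 0.60. Bmpr2, a receptor of bone morphogenetic proteins in the vessel wall, was 8.50, 9.13, 9.03, 8.86 and 11.19 at 5 ppm, rat 222 again being the high value, and 11.19, 11.29, 11.31, 11.16 and 11.05 at 90 ppm (1.86 ± 0.34, adjusted p = 0.0031). Raph1, an actin-regulating adaptor, showed the same split, with rat 222 at 8.56 and the others from 6.70 to 7.01 against 8.47 to 8.60 at 90 ppm (1.30 ± 0.22), and its other probe set was at 0.15. Nipbl, which loads cohesin onto DNA, rose by 2.26 ± 0.44 (other probe sets 0.99 and 2.27). Zdhhc20, a palmitoyltransferase, rose by 2.22 ± 0.44, Ro60, which binds small cytoplasmic RNAs, by 2.14 ± 0.44, Crim1, a regulator of growth factors, by 1.54 ± 0.29 and Igf1r by 0.52 ± 0.09 (other probe set -0.19). The remaining genes among the 15 largest rises were Sv2b, Arhgap5, Tmed5, Ccar1 and Arid4a, at 1.86 to 2.01, besides genes named elsewhere.

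Of 42 measured genes of splicing and nuclear RNA processing, 9 rose and 1 fell, with a median of 0.32, against 4.13% rising, 19.5% falling and a median of -0.14 over all genes. Srrm2, a large splicing coactivator, rose by 1.5 ± 0.29 (other probe set 0.66), Rbm39 by 1.12 ± 0.30, Srsf5 by 0.67 ± 0.17 and Son by 0.47 ± 0.10. The 4 other probe sets of Rbm39 gave 0.89 to 1.27 and those of Son 0.22 to 0.65. After 15 days the median of the list was -0.16. Without rat 217, Srrm2 alone passed (median 0.21), with the RNA integrity number 0, and with the between-array score 3, Srrm2, Son and Rbm39, with a median of 0.03.

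The 90 ppm rats were also compared with the 30 ppm rats, which had RNA integrity numbers of 8.3 to 9.3 (1 rat of the 5 has none in the labels). From 30 to 90 ppm 31 genes rose (0.282%) and 0 fell at an adjusted p under 0.05 by limma, of 1031 at an unadjusted p under 0.05, and the alternatives gave between 0 and 558 falls. Raph1 (1.35, adjusted p = 0.0024), Igf1r (0.51, adjusted p = 0.0031), Bmpr2 (1.80, adjusted p = 0.0088) and Crim1 (1.49, adjusted p = 0.012) were among them, chosen here for their rise from 5 ppm, and this comparison shares the 90 ppm rats with that one. From 5 to 30 ppm 0 genes passed (1477 at an unadjusted p under 0.05), with Bmpr2 at 0.05, Raph1 at -0.05 and Igf1r at 0.00. These values rest on single rats: without rat 222, Bmpr2 was at 0.52 and Raph1 at 0.27, and with any 1 rat left out Bmpr2 ran from -0.16 to 0.52, Raph1 from -0.19 to 0.27 and Igf1r from -0.09 to 0.08. Gsta3 was at 0.15 from 30 to 90 ppm (adjusted p = 0.71 by limma). From 5 to 30 ppm it was at 0.74, and from 0.59 to 0.93 with any 1 rat left out. Whether its steps differ from those of the genes above was not tested. Bmpr2 was 8.90 to 10.06 in the 30 ppm rats and 11.14 to 11.61 in the 200 ppm rats.

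**Figure D4:**
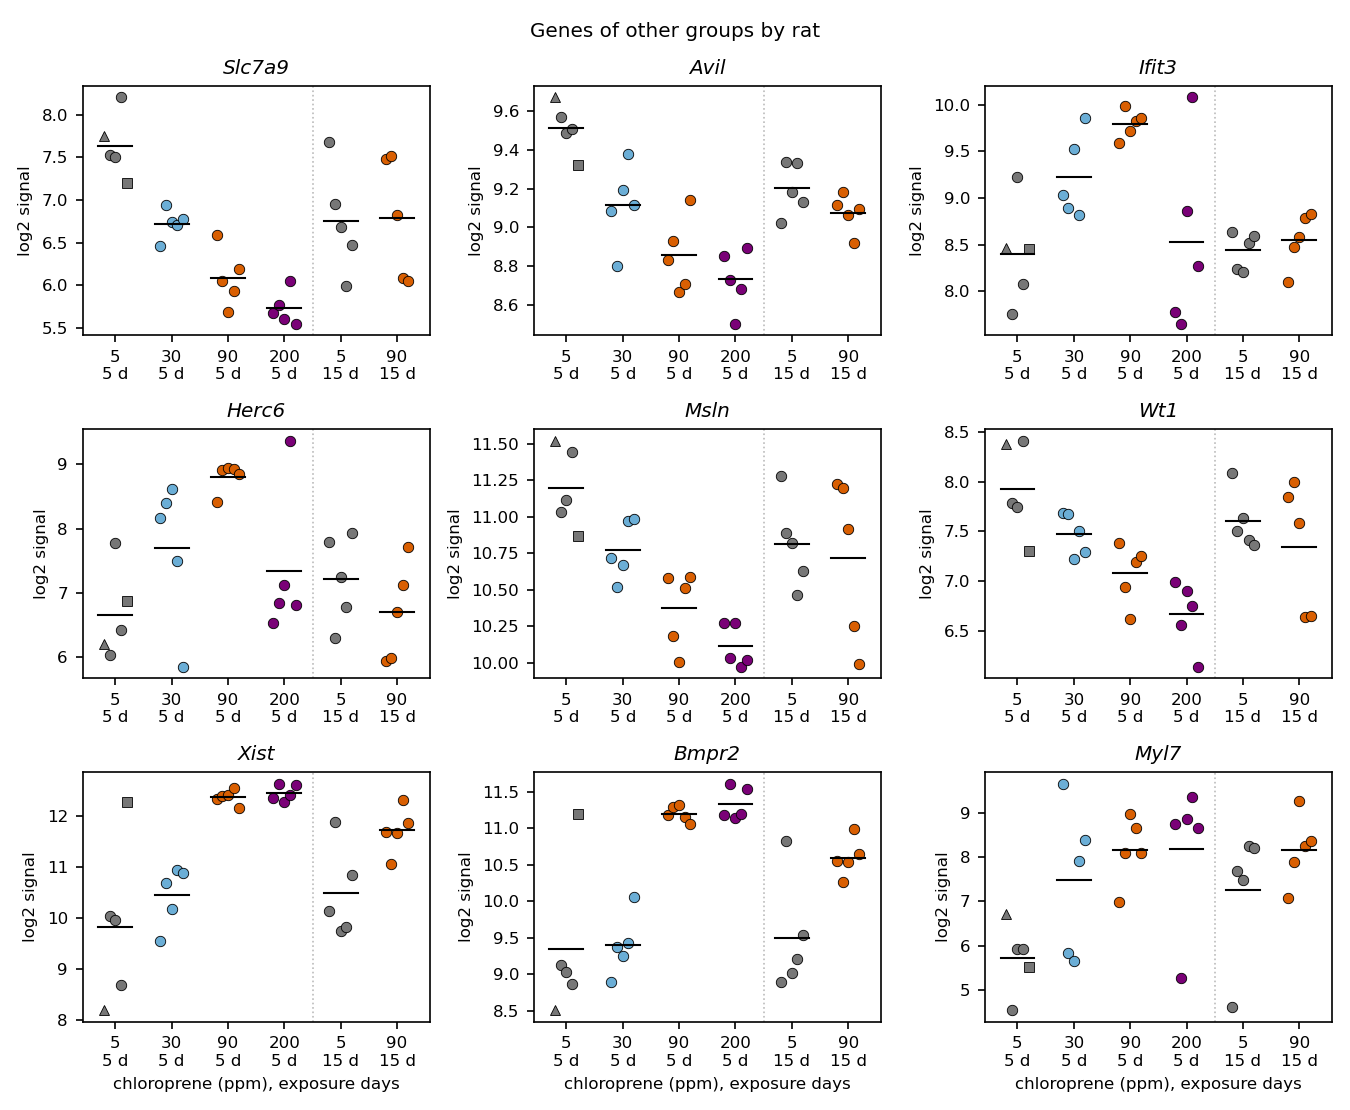
Log2 signal of 9 genes in each rat, by chloroprene concentration and exposure days; bars are group means, the triangle is rat 217 and the square rat 222. In Xist and Bmpr2 rat 222 lies with the 90 ppm rats, in Ifit3 and Herc6 4 of the 200 ppm rats lie below all 90 ppm rats, and in Slc7a9, Avil and Msln the 5 and 90 ppm rats do not overlap after 5 days.

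Of 33 measured genes of replication and mitosis, 16 fell, 2 rose and 15 did not pass (median -0.25), where of all genes 19.5% fell and 4.13% rose (median -0.14). The 2 that rose were Ccne2, a cyclin of entry into DNA synthesis (0.75 ± 0.22), and Mcm4, of the replicative helicase (0.37 ± 0.13), both named after their values were seen, and the change of Ccne2 was the largest among the called genes of the list. In 7 of the 33 all 90 ppm rats lay below all 5 ppm rats, against 7.12% of all genes. Cdk1, the kinase that drives mitosis, was 8.34, 8.42, 8.21, 7.81 and 7.97 at 5 ppm and 7.63, 7.77, 7.47, 7.49 and 7.53 at 90 ppm, barely apart, and fell by 0.57 ± 0.13 (adjusted p = 0.010). Its partner cyclin Ccnb2 fell by 0.50 ± 0.12, Nusap1, a spindle protein, by 0.42 ± 0.11 (other probe set -0.18) and Cdca3, which triggers mitotic entry, by 0.49 ± 0.14. Mki67, a common marker of proliferation, was not among the genes tested. Of 31 DNA repair genes 8 fell and 1 rose, with a median of -0.13, near that of all genes. The riser was Wrn, the Werner helicase (1.25 ± 0.41, adjusted p = 0.034), the largest change of the list, chosen here after its value was seen. The falls included Fanca, of the crosslink repair complex (0.31 ± 0.09 lower), and Ung, which removes uracil (0.38 ± 0.11 lower). Among 20 targets of p53, 2 rose and 2 fell: Mdm2, its inhibitor (0.26 ± 0.09), and Gadd45a (0.43 ± 0.13) rose, and the nuclease Aen (-0.32 ± 0.09) and Ei24 (-0.34 ± 0.12) fell. The cell cycle inhibitor Cdkn1a was at -0.11 ± 0.10 (adjusted p = 0.37). After 15 days the medians of the 3 lists lay between -0.03 and 0.01, and 0 of their genes passed. Without rat 217, and with the RNA integrity number, 0 of them passed either. With the between-array score 2 genes of the replication list fell, Nusap1 and Kif23, and Kif23 had been at 0.23 ± 0.28 without it and had not passed (adjusted p = 0.49), so its direction turned.

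Among epithelial lists, alveolar type 1 genes held the most falls. Of 22 genes of alveolar type 1 cells, the thin cells of gas exchange, 8 fell and 0 rose, where 19.5% of all genes fell, and the median of -0.10 was above the -0.14 of all genes. Krt8, a keratin that the mesothelial list also holds, fell by 0.42 ± 0.11, Igfbp2 by 0.60 ± 0.16, the tight junction gene Cldn18 by 0.22 ± 0.06 (other probe sets -0.13 and -0.21) and the water channel Aqp5 by 0.28 ± 0.08, while Ager was at -0.11 ± 0.05 (adjusted p = 0.11). Of 21 genes of alveolar type 2 cells 1 fell and 0 rose, and Sftpc was at 0.02 ± 0.03. Sftpb was at -0.07 ± 0.04 by its brightest probe set, and a second Sftpb probe set rose by 1.46 (adjusted p = 0.0078), so the 2 disagree. Of 18 secretory airway genes 2 rose and 1 fell. Scgb3a1, a secretoglobin of the larger airways, was 10.51, 10.97, 9.22, 9.10 and 9.83 at 5 ppm and 11.42, 10.91, 12.10, 12.48 and 12.81 at 90 ppm, which overlap, and rose by 2.02 ± 0.66 (adjusted p = 0.034). Bpifa1, a secreted airway protein, ranged from 7.41 to 9.90 at 5 ppm and from 8.49 to 12.40 at 90 ppm and did not pass (2.85 ± 1.27, adjusted p = 0.077). Spdef, which drives mucous cells, fell by 0.36 ± 0.11, and Scgb1a1 was at 0.09 ± 0.04 (adjusted p = 0.077). Without rat 217 only Aldh1a1 of the genes of these 3 lists passed, with the RNA integrity number 0, and with the between-array score Aldh1a1 again alone.

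A few markers of neighbouring tissue and of blood passed the threshold, where of all genes 4.13% rose and 19.5% fell. Of 16 measured cardiac muscle genes, which are expressed in the muscle sleeve of the pulmonary veins in rodents, 3 rose and 1 fell (median 0.55). Myl7, the atrial myosin light chain, was 6.71, 4.54, 5.94, 5.93 and 5.51 at 5 ppm and 6.98, 8.09, 8.98, 8.67 and 8.09 at 90 ppm (2.44 ± 0.80, adjusted p = 0.034). Myh6, a myosin heavy chain, rose by 1.99 ± 0.69 and Tnni3, cardiac troponin I, by 1.04 ± 0.31, while Cox7a1 fell by 0.34 ± 0.11. Other groups were wide in the same genes: Myl7 ran from 5.66 to 9.66 at 30 ppm and from 5.28 to 9.37 at 200 ppm. The mean log2 signal of the 16 genes was 6.92 to 7.37 at 5 ppm and 7.32 to 8.02 at 90 ppm, and the part of dissection in it was not tested. Of 10 genes of red cells and their precursors 5 fell and 0 rose (median -0.38, and -0.14 at 30 and -0.34 at 200 ppm against the same 5 ppm rats). Alas2, which starts haem synthesis there, was 10.86, 10.77, 10.61, 10.65 and 10.39 at 5 ppm and 10.02, 9.82, 9.85, 8.997 and 9.89 at 90 ppm and fell by 0.94 ± 0.24, and Ahsp, which stabilises alpha globin, fell by 0.82 ± 0.20. Slc4a1, the anion exchanger of the red cell, fell by 0.39 ± 0.10 and Bpgm, which makes bisphosphoglycerate, by 0.49 ± 0.14. In other rats after 15 days the median change of the 10 red cell genes was 0.16, and 0 of them passed. After 5 days, 0 genes of the cardiac and red cell lists passed without rat 217, with the RNA integrity number or with the between-array score.

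**Figure D5:**
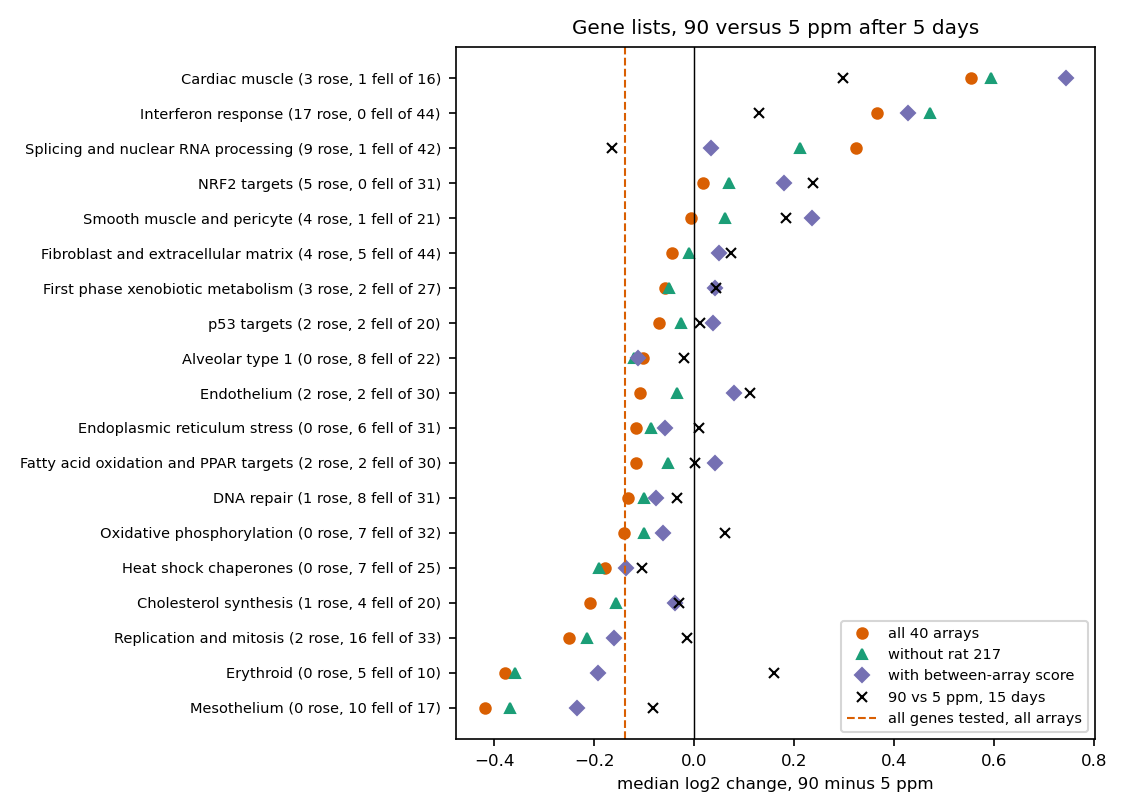
Median log2 change from 5 to 90 ppm of each gene list with at least 4 called members: circles, 5 days, all arrays; triangles, without rat 217; diamonds, with the between-array score; crosses, 15 days. The dashed line is the median of all 11010 genes (-0.14). The interferon, cardiac muscle and NRF2 lists lie above 0 in all 4, and the mesothelium, replication, DNA repair, alveolar type 1, heat shock and cholesterol lists below 0 in all 4.

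Stromal and immune lists held rises and falls side by side. Of 44 fibroblast and matrix genes 4 rose and 5 fell, where of all genes 4.13% rose and 19.5% fell, and of 21 smooth muscle and pericyte genes 4 rose and 1 fell, among them Myh11, the smooth muscle myosin (0.60 ± 0.15). Dcn, the proteoglycan decorin, rose by 0.91 ± 0.20 (adjusted p = 0.0092) with all 90 ppm rats above all 5 ppm rats (11.87 to 12.22 against 10.51 to 11.72). Of 30 endothelial genes 2 rose and 2 fell: Lyve1, a hyaluronan receptor of lymphatic vessels and some macrophages, rose by 0.54 ± 0.17 (other probe set 0.93), and Pecam1 was at -0.04 ± 0.14. In the monocyte and interstitial macrophage list 1 of 27 rose and 2 fell, among them Csf1r, the receptor for colony-stimulating factor 1 (0.38 ± 0.09 lower). In the alveolar macrophage list 0 rose and 2 of 20 fell, among them Axl, a receptor for dying cells (0.34 ± 0.09 lower). Without rat 217 and with the RNA integrity number, 0 genes of these lists passed, and with the between-array score Dcn and the smooth muscle gene Cnn1 alone.

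Stress, hormone, clock and cholesterol lists held 3 rises in all, and of all genes 4.13% rose and 19.5% fell. Of 18 glucocorticoid-induced genes 1 rose, the kinase Pdk4 (0.66 ± 0.20, adjusted p = 0.027), and Fkbp5, a chaperone of the glucocorticoid receptor, was at 0.39 ± 0.44 (adjusted p = 0.46). Zbtb16 was not among the genes tested. Of 20 clock genes 1 rose and 1 fell, with Nr1d1 at -0.11 ± 0.16 and Dbp at 0.13 ± 0.18, and the immediate early gene Fos was at 0.15 ± 0.46. Of 25 heat shock chaperones 7 fell and 0 rose (median -0.18), among them Dnajb1 (0.57 ± 0.17 lower, other probe set -0.49) and Fkbp4 (0.45 ± 0.13 lower). Of 20 genes of cholesterol synthesis 4 fell, near the share of all genes, and 1 rose: Srebf2, its transcription factor, fell by 0.35 ± 0.09, and the rise of Cyp51 (0.29 ± 0.09) stood against -0.26 in its other probe set. Without rat 217 and with either covariate, 0 genes of these 5 lists passed.

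Whether the response changed with time was tested as the difference between the changes at 15 and at 5 days. By limma 0 of 11010 genes passed, while 5205 (47.3%) had an unadjusted p under 0.05. Other settings gave 2917 (quantile normalization), 1421 (arrays centred on the median gene), 3544 (the 4 groups alone) and 8036 calls (array weights). Across genes the change at 15 days ran against that at 5 days (r = -0.49 over 11010 genes, different rats). The loading of the between-array component correlated with the change at 5 days at r = 0.85 and with that at 15 days at r = -0.78. Of the 2598 genes called at 5 days, 1002 had the same sign at 15 days, and that share over all genes was not counted. Of the 34 genes called at 15 days, 3 were also called at 5 days, a smaller share than the 23.6% of all genes. These 3 were Tbc1d12, Nfix and Gnb1. Tbc1d12, a GTPase-activating protein, was 4.87, 4.99, 4.75, 5.70 and 6.03 at 5 ppm and 6.46, 6.86, 6.67, 6.95 and 6.31 at 90 ppm after 5 days, without overlap, and rose by 1.38 ± 0.26 at 5 days and 1.53 ± 0.26 at 15 days (adjusted p = 0.0044). Nfix, a transcription factor of the nuclear factor I family, rose by 1.27 ± 0.29 and 1.39 ± 0.29, with its other probe set at -0.01 at 5 days. Gnb1, a G protein beta subunit, fell by 0.18 ± 0.07 at 5 days and was at -0.32 at 15 days. By unadjusted p the strongest differences between times were those of Camk2b (-0.57 ± 0.10 at 5 days, 0.18 at 15 days), Epn1 (-0.26 ± 0.07 and 0.19) and Marchf9 (-0.49 ± 0.09 and 0.12) upward and Parp8 (0.33 ± 0.10 and -0.36) and Etfbkmt (0.18 ± 0.07 and -0.32) downward.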

How the data were processed

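RNA from the right lungs of 40 female rats (8 groups of 5, the labels giving each animal its own number) was measured on Affymetrix Rat230_2 arrays, and the p-values measure the spread between animals. The authors deposited 1 table of log2 signals for 31099 rat probe sets, and the method of summarization and normalization is not given in the sources used here. Array medians ran from 7.25 to 7.32 log2 units. Probe sets with 1 gene symbol (20826) were kept where the signal passed the 40th percentile (6.65) on at least 5 arrays, and the probe set with the highest mean stood for each gene, which gave 11010 genes. Group means were fitted with limma 3.58.1 in R 4.3.3 over all 40 arrays, with Benjamini-Hochberg adjustment at 0.05. The procedure was tested on simulated data.

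The members and the 48 gene lists (1404 symbols, 938 measured) were chosen with earlier results of these data known. Named genes were the 15 largest rises and falls past the threshold, the called members with the smallest p (at most 4) of each list that had at least 2, a fixed set of 16 genes of metabolism, cell type, stress and clock, and the genes with the smallest p for the difference between times, 5 in each direction. The 36 genes that passed without each rat in turn, the genes also called at 15 days, the marker genes and a few others given for context were chosen after their values were seen. Alternatives were other filters, normalization, probe set rules, covariates, arrays in the fit, variance models and leaving out each rat. The between-array score, the centring, the removal of rats 217 and 222 and the 30 and 200 ppm differences without each rat were added after the data were seen. No sequence is printed, since rat sequences were not used here.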

Additional observations from a re-analysis of the deposited data

Results flagged for a closer look

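In each group of 5 rats, a rat was looked at again where its gap to the nearest other rat was a large share of the group's range (Dixon's test at 95%). Over 121 genes and 3 array measures in the 5 and 90 ppm groups after 5 days, 248 groups were examined and 22 held such a rat, 13 at 5 ppm and 9 at 90 ppm. Chance gives about 1 in 20. Rat 217 stood apart in 6 and rat 222 in 7.

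Rat 222, at 5 ppm, stood above the other 5 ppm rats in 5 genes that rose at 90 ppm: Bmpr2 (11.19, the others 8.50 to 9.13), Raph1 (8.56, the others 6.70 to 7.01), Crim1 (9.58, the others 7.46 to 8.04), Arhgap5 (7.77, the others 4.99 to 5.57) and Tmed5 (7.41, the others 4.81 to 5.44), all log2 signals. It stood below them in 2 genes that fell, Anxa4 (12.73, the others 12.93 to 12.98) and Cldn18 (13.17, the others 13.25 to 13.27). Its RNA integrity number was the lowest of its group (7.3) and its between-array score the highest (0.20), and the part of either was not tested.

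Rat 217, at 5 ppm, was higher than the others in Alox5 (9.92, the others 9.49 to 9.58), Hmox1 (9.67, the others 9.09 to 9.22), Fanca (6.84, the others 6.50 to 6.55) and the airway gene Bpifa1 (9.90, the others 7.41 to 7.90), and lower in Mdm2 (9.74, the others 9.95 to 10.01) and in Prkar2b (8.96, the others 9.46 to 9.62), a regulatory subunit of protein kinase A.

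At 90 ppm, rat 249 was low in Herc6 (8.41, the others 8.84 to 8.94) and Lyve1 (11.51, the others 11.95 to 12.09) and high in Son (11.52, the others 11.34 to 11.38). Rat 252 was low in Abcc4 (8.78, the others 8.85 to 8.87) and Alas2 (8.997, the others 9.82 to 10.02). Rat 253 was low in Usp18 (9.78, the others 10.03 to 10.10) and high in Ager (13.61, the others 13.44 to 13.48), and rat 251 was high in Fkbp4 (9.49, the others 9.29 to 9.35). The RNA integrity number of rat 249 was 9.3 and that of the others 9.2, a gap of 1 step of the scale.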

How the results depend on the processing

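No paired analysis was possible because each animal number occurs in 1 group only. The count of 2598 genes called from 5 to 90 ppm after 5 days was 17 with the RNA integrity number in the fit, 5211 with the 3' minus 5' signal, 67 with the 2 groups alone in the fit, 6406 with array weights, 211 with the between-array score, 1419 with centred arrays and 793 without rats 217 and 222. It was 36 to 5639 when 1 rat was left out: 36 without rat 217, 459 without 219, 943 without 221, 5639 without 222, 688 without 250, 480 without 251, 1057 without 252 and 847 without 253.

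The 34 calls at 15 days became 132 over every probe set, 0 with the RNA integrity number, 0 with the 3' minus 5' signal, 1 with the groups alone, 6195 with array weights, 545 with the between-array score, 99 with centred arrays, and 2 to 143 with 1 rat left out. The 0 calls of the difference between times became 2917 after quantile normalization, 3544 with the groups alone, 8036 with array weights, 1421 with centred arrays, and 0 to 5116 with 1 rat left out. The 31 calls from 30 to 90 ppm became 18 after quantile normalization, 85 with the mean of a gene's probe sets, 242 over every probe set, 8 with the RNA integrity number, 6 with the 3' minus 5' signal, 54 with the groups alone, 1 with arrays of the same time, 944 with array weights, 194 with the between-array score, and 6 to 114 with 1 rat left out. The 0 calls from 5 to 30 ppm became 1 over every probe set, 4949 with array weights, and 0 to 281 with 1 rat left out. The 3992 calls from 5 to 200 ppm became 2468 with the RNA integrity number, 6434 with array weights, 2611 with the between-array score, 2207 with centred arrays, 2597 without rats 217 and 222, and 1389 to 5581 with 1 rat left out. The causes were not tested.

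Of the 121 genes recomputed, 86 lost the threshold with the RNA integrity number, 60 with the between-array score, 71 with the groups alone and 76 without rat 217. Some of the 121, such as Hmox1 and Bpifa1, had not passed in the full fit, so the remainder are not all genes that passed. Of all 11010 genes, 17 passed with the RNA integrity number. Genes that changed sign were near 0 or differed between probe sets. Hmox1 was 0.071 with the RNA integrity number and 0.092 with the score, and without rat 217 it was 0.0024. Ephx1 was 0.14 with the score, 0.047 with centred arrays and 0.0013 without rats 217 and 222, and with 1 rat left out it ran from -0.065 to 0.028 (0.0038, 0.028 and 0.014 without rats 219, 250 and 251). Pecam1 was 0.072 with array weights, 0.19 with the score, 0.023 with centred arrays and 0.014 without rat 252. Cdkn1a was 0.077 and Nr1d1 0.14 with the score, Dbp was -0.028 with the RNA integrity number, and Fos ran from -0.15 to 0.41 with 1 rat left out (-0.15, -0.11 and -0.079 without rats 220, 249 and 252). Sftpa1 was 0.019 with centred arrays, and Sftpb was 0.70 as the mean of its probe sets. Other probe sets gave -0.19 for Igf1r, -0.011 for Nfix, 0.087 for Cdkn1a, 1.46 for Sftpb, 0.012 for Sftpa1, -0.26 for Cyp51, -0.17 for Etfbkmt and -0.20 for Atosa. Signals near the ends of the table (3.07 and 15.1) limit what a change can show there.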

Other observations

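Genes of energy metabolism and of protein folding in the endoplasmic reticulum fell about as often as all genes, of which 19.5% fell and 4.13% rose (median -0.14). Of 32 genes of oxidative phosphorylation 7 fell and 0 rose (median -0.14), among them the complex I subunits Ndufv2 (-0.28 ± 0.08) and Ndufb5 (-0.33 ± 0.10) and the cytochrome oxidase subunit Cox5a (-0.35 ± 0.12). Of 31 genes of endoplasmic reticulum stress 6 fell and 0 rose (median -0.12), among them Manf (-0.27 ± 0.08), Creld2 (-0.32 ± 0.11) and the chaperone Calr (-0.19 ± 0.06). None of the genes of these 2 lists passed without rat 217, with the RNA integrity number or with the between-array score. Of 30 genes of fatty acid oxidation and PPAR targets 2 rose and 2 fell, with Ppargc1a, a coactivator of mitochondrial genes, at 0.78 ± 0.28 and Ucp3, a mitochondrial carrier, at -0.32 ± 0.10. None of these 30 genes passed without rat 217 or with either covariate.

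Of 9 measured nerve genes 2 fell and 0 rose, where of all genes 19.5% fell and 4.13% rose. Prph, the intermediate filament of peripheral neurons, fell by 0.95 ± 0.31 and Gfra3, a receptor for artemin, by 0.39 ± 0.13. Of 24 genes of motile cilia 2 rose and 0 fell, Rfx3, a transcription factor of ciliogenesis (1.01 ± 0.34), and Ak7, an adenylate kinase of cilia (0.53 ± 0.19). Of 12 genes of MHC class II presentation 2 fell, the costimulatory molecules Cd83 (-0.54 ± 0.12) and Cd86 (-0.35 ± 0.11), and in the B and plasma cell list 1 of 17 rose and 2 fell. None of these 4 lists held a call without rat 217 or with either covariate.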
